A study of Homo sapiens with 6 samples.

Results

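The genes described here are the chemokines and their receptors, taken as every row of the deposited annotated array table whose single gene symbol began with a chemokine or chemokine receptor name (CCL, CXCL, CX3CL, XCL, CCR, CXCR, CX3CR, XCR or ACKR with a number) or was IL8, PF4, PPBP or DARC. The rule used names and no measured value. It gave 67 of 26515 rows with exactly 1 symbol, which stand for 65 genes. Of these rows 46 are ligands, 18 are conventional receptors, 2 are atypical receptors and 1 is the receptor pseudogene CXCR2P1. IL8 is called CXCL8 here, CXCR7 is called ACKR3 and DARC is called ACKR1, as in RefSeq. RNA was measured on 6 Affymetrix arrays, 3 of them of T24, a human bladder carcinoma line, and 3 of T24/THP, its multidrug-resistant derivative per the labels. T24/THP was raised by 24 h exposures to pirarubicin, an anthracycline, raised stepwise from 5 to 1000 ng/ml in a process of over 6 months, then redosed every 2 to 3 weeks, while T24 was grown alongside without the drug. The labels call the 3 samples of a line biological replicates. T24/THP was derived once, so each p-value reflects the spread between samples of these cultures. The comparison asks which chemokine genes are expressed differently in T24/THP. Selection for resistance and the repeated redosing went together in this line, so they cannot be told apart.

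Chemokines are small secreted proteins that steer leukocytes by binding G protein-coupled receptors on them. CXC ligands with a glutamate-leucine-arginine (ELR) sequence ahead of their first cysteines attract neutrophils through CXCR1 and CXCR2, and their genes are classical targets of NF-kB and AP-1. CXCL9, CXCL10 and CXCL11 lack that sequence, are induced by interferons and attract activated T cells and natural killer cells through CXCR3. In bladder tumours such ligands are among the signals that bring neutrophils and T cells into the tissue.

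Values are log2 intensities, on which 1 unit is a 2-fold difference. A row was called when limma's moderated test gave an adjusted p under 0.05 (Benjamini-Hochberg over all 26515 rows) and the lines differed by at least 2-fold. A line's background bound is the mean over its arrays of the brightest of 23 background control probe sets, 5.54 in T24 and 5.51 in T24/THP. Where 1 line lies at or under its bound, the other line's mean is set against that bound and the fold is written as "at least". Rows under the bound in both lines get no fold. Rows are different probes, so no row's level is set against another's.

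Of the 67 chemokine family rows 3 were called higher and 6 lower in T24/THP, or 13.4%, against 6.69% of all rows (3.02% higher and 3.67% lower). The 6 lower rows were the neutrophil attractants CXCL1, CXCL2, CXCL5, CXCL6 and CXCL8 and the CC chemokine CCL20. The 3 higher rows were CXCL10, CXCL11 and CCL5, all attractants of T cells. No receptor was called. Without the 2-fold minimum 12 of the 67 rows passed the test, against 32.9% of all rows, the other 3 being CXCL3, CXCL16 and CXCL17. When each array was left out in turn, the adjusted p went from 0.0113 to 0.103 for CXCL16, over the threshold without any array but T24 replicate 1. It went from 0.0345 to 0.111 for CXCL17, over the threshold without T24 replicate 1 or 3 or T24/THP replicate 1 or 2. The 2 lines did not overlap in any of the 9 called rows, but neither did they in 18 of 67 rows of the family and in 45.0% of all rows. The median difference over the family was 0.04, beside 0.01 over all rows. Because each array reads bulk RNA, fewer cells making a transcript and less of it per cell cannot be told apart.

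**Figure D1:**
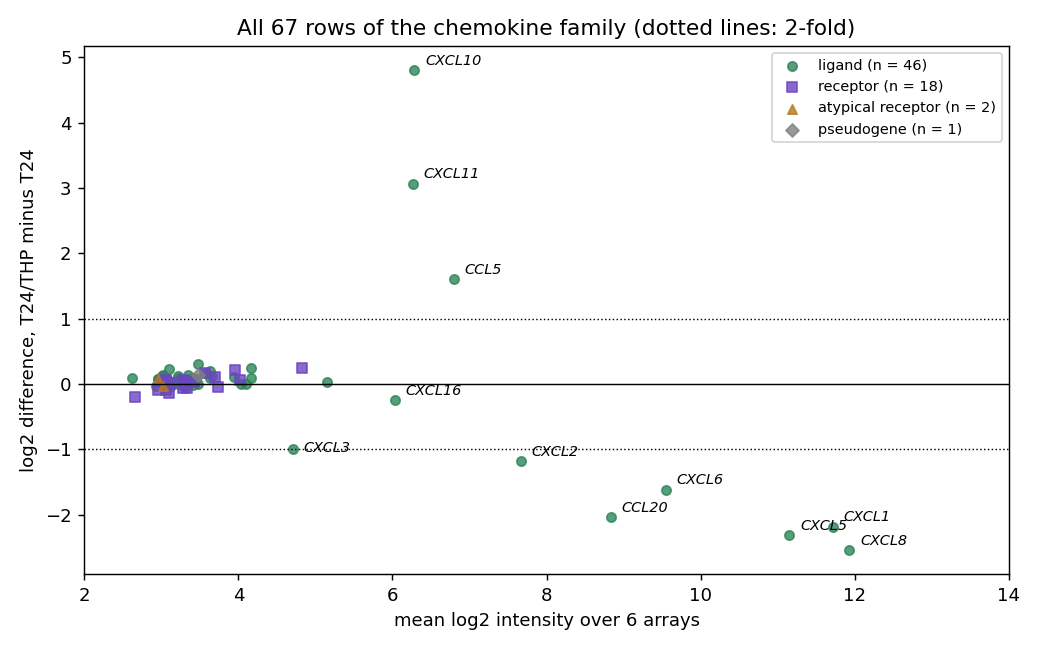
Each point is 1 of the 67 chemokine family rows, with its mean log2 intensity over the 6 arrays on the x axis and the log2 difference of T24/THP minus T24 on the y axis. CXCL10, CXCL11 and CCL5 lie above the upper 2-fold line, 6 ligands lie below the lower one, CXCL3 lies close to it, and all receptors lie near 0 on the left.

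Of 7 ELR ligands in one gene cluster on chromosome 4, 5 fell (CXCL1, CXCL2, CXCL5, CXCL6 and CXCL8), while CXCL3 and PPBP were not called. CXCL8, the prototype neutrophil attractant, had log2 intensities of 13.33, 13.003 and 13.26 in T24 replicates 1 to 3, and of 10.27, 10.73 and 10.96 in T24/THP. Every T24/THP array was below every T24 array, by a 5.83-fold difference of the means (−2.54 ± 0.174 SE, n = 3 each, limma adjusted p of 3.17e-05). CXCL1 (GRO-alpha), a CXCR2 ligand first known as a melanoma growth factor, was at 12.93, 12.87 and 12.62 in T24 and at 10.34, 10.69 and 10.85 in T24/THP. Its difference was −2.18 ± 0.142 (limma adjusted p of 2.59e-05), again with no overlap. CXCL5 (ENA-78), which epithelial cells release to draw neutrophils, was at 12.35, 12.44 and 12.14 in T24 and at 10.05, 9.91 and 10.02 in T24/THP. Its difference of −2.31 ± 0.0884 had the smallest standard error of the 6 falls and a limma adjusted p of 2.94e-06.

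The fall was smaller on the log2 scale for CXCL6 and CXCL2. CXCL6 (GCP-2), which binds both CXCR1 and CXCR2, was at 10.68, 10.23 and 10.17 in T24 and at 8.55, 8.79 and 8.87 in T24/THP, a difference of −1.62 ± 0.147 (limma adjusted p of 0.000113). CXCL2 (GRO-beta), a close paralog of CXCL1, was at 8.52, 8.10 and 8.14 in T24 and at 6.89, 7.23 and 7.10 in T24/THP, a difference of −1.18 ± 0.133 (limma adjusted p of 0.000336). CXCL3 (GRO-gamma), the other GRO paralog, was at 5.16, 5.12 and 5.31 in T24 and at 4.18, 4.30 and 4.16 in T24/THP. It was thus lower in all 3 T24/THP arrays, but lay under the bound in both lines and just missed the 2-fold minimum, at −0.99 ± 0.0737 (limma adjusted p of 4.66e-05). CXCL3 passed that minimum in 5 of 15 alternative settings, among them quantile normalization (−1.04) and without T24 replicate 1 (−1.01) or 2 (−1.03) or T24/THP replicate 2 (−1.03). PF4 and PPBP, platelet chemokines of the same cluster, of which PPBP gives rise to an ELR ligand, lay under the bound in both lines, with means of 3.89 and 3.996 for PF4 and of 2.92 and 2.99 for PPBP in T24 and T24/THP. T24/THP replicate 1 was the lowest T24/THP array in 5 of the 6 called falls, and T24 replicate 1 was the highest T24 array in 5 of them.

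**Figure D2:**
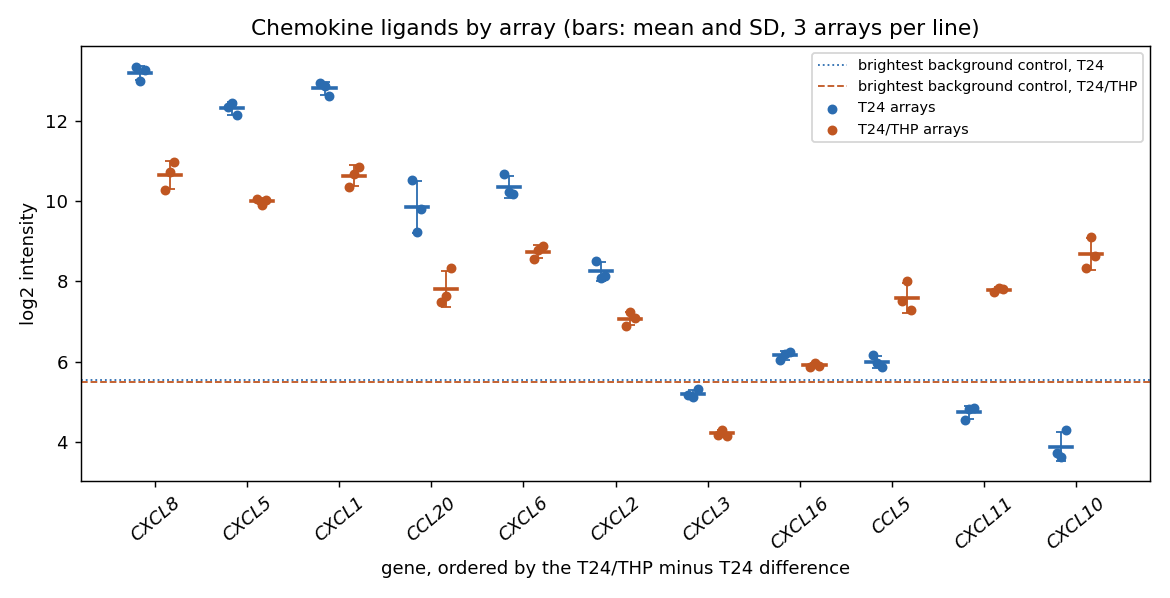
Log2 intensity (y axis) of 11 chemokine ligands (x axis) in each array, with the mean and SD of 3 arrays per line and dotted and dashed lines at the background bounds of 5.54 and 5.51. From CXCL8 to CXCL16 the T24/THP arrays lie below the T24 arrays, and for CCL5, CXCL11 and CXCL10 they lie above them.

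The upstream sequences of these ligands are shown because the 5 that fell and CXCL3 share a motif at nearly the same place. The lines give, from RefSeq on GRCh38.p14 and read 5′ to 3′ on the gene's own strand, the 120 bases just before the annotated start. Capitals mark GGAANTTCC, a form of the site that NF-kB binds, which reads the same on both strands.
CXCL8: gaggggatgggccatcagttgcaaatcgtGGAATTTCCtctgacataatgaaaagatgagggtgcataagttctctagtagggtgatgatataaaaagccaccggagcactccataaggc
CXCL6: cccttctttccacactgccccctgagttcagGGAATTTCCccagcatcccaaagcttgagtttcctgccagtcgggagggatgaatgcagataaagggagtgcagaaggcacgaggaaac
CXCL1: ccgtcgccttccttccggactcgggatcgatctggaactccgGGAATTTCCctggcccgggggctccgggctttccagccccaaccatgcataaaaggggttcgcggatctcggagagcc
CXCL5: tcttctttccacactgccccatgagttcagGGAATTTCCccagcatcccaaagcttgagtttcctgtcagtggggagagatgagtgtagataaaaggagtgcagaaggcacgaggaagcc
CXCL3: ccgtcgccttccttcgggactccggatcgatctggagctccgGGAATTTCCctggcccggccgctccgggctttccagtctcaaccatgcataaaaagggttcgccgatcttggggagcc
CXCL2: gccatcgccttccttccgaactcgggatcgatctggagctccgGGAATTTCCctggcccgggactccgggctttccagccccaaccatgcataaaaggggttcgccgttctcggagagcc
These stretches are chr4:73740449-73740568 (plus strand) for CXCL8, chr4:73836558-73836677 (plus) for CXCL6 and chr4:73869273-73869392 (plus) for CXCL1. They are chr4:73998678-73998797 (minus) for CXCL5, chr4:74038690-74038809 (minus) for CXCL3 and chr4:74099196-74099315 (minus) for CXCL2. The motif began at −91 in CXCL8, −90 in CXCL5, −89 in CXCL6, −78 in CXCL1 and CXCL3, and −77 in CXCL2, counted from the first base before the start as −1. Of the 35116 RefSeq windows of 250 bases before to 50 bases after a start, 0.965% hold this motif. It was in the windows of 9 of the 45 family genes with a window, the 6 above, CXCL10, CXCL11 and CCL1. The window of PPBP does not hold it. CXCL8 also holds TGANTCA, an AP-1 form found on both strands alike, at −137, outside the bases shown. That form is in 7.71% of all windows and in those of 9 family genes. Of these CXCL8 and CXCL11 were called, while CCL7, CCL24, CCL27, CCR2, CXCL14, CXCL17 and CXCR6 were not. The window of CCL20 holds neither motif. In a global alignment the stretch of CXCL1 was 93.4% identical to that of CXCL2 and 90.8% to that of CXCL3, and the stretch of CXCL5 was 90.9% identical to that of CXCL6. A match describes letters only, and binding was not measured.

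CCL20 fell as well, with the widest spread between replicates of the called rows. CCL20, the only known chemokine ligand of CCR6, draws dendritic cells, B cells and T helper 17 cells to epithelia. Its gene lies on chromosome 2, apart from the ELR cluster. It was at 10.52, 9.23 and 9.80 in T24 and at 7.48, 7.64 and 8.32 in T24/THP. The lines did not overlap, the closest arrays being T24 replicate 2 and T24/THP replicate 3. The difference was −2.04 ± 0.340 (95% interval of −2.83 to −1.24, limma adjusted p of 0.00247), and it went from −2.35 to −1.70 over the alternatives.

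The interferon-inducible ligands CXCL10 and CXCL11 rose, while CXCL9 stayed within the background range. CXCL10 (IP-10) was at 3.73, 3.62 and 4.29 in T24, all under the bound, and at 8.32, 9.10 and 8.62 in T24/THP. It was at least 8.86-fold higher (measured difference of 4.805 ± 0.233, limma adjusted p of 7.23e-06). CXCL11 (I-TAC), which also binds the scavenging receptor ACKR3, was at 4.54, 4.81 and 4.85 in T24 and at 7.73, 7.85 and 7.81 in T24/THP. It was at least 4.79-fold higher (measured difference of 3.06 ± 0.0912, limma adjusted p of 1.05e-06). CXCL9 (MIG), best known as a target of interferon gamma, lies next to them and was at 3.00, 3.12 and 2.99 in T24 and at 3.29, 3.14 and 2.89 in T24/THP. Those arrays overlapped, and the 95% interval of the CXCL9 difference was −0.18 to 0.32. Adding 32 to each linear intensity before the log brought the differences to 3.24 for CXCL10 and 2.12 for CXCL11. T24 replicate 3 had the brightest control probe set of all arrays, at 6.38, and without it the bounds became at least 11.9-fold for CXCL10 and 6.42-fold for CXCL11.

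The upstream stretches of CXCL10 and CXCL11 are shown beside those of the ligands that fell. Capitals in the 240 bases of CXCL10 mark GGAANTTCC and, nearer the 5′ end, a pair of GAAA blocks with 2 bases between them, a form of the element that interferon-activated factors bind. Capitals in the 120 bases of CXCL11 mark TGANTCA and GGAANTTCC.
CXCL10: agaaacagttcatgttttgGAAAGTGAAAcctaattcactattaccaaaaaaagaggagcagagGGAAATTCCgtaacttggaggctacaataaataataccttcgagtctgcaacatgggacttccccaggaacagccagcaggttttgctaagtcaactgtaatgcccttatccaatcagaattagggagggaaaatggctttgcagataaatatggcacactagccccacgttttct
CXCL11: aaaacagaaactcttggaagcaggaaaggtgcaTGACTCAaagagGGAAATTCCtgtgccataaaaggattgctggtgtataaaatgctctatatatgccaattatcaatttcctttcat
They are chr4:76023498-76023737 for CXCL10 and chr4:76036071-76036190 for CXCL11, both on the minus strand of GRCh38.p14. The interferon form began at −221 in CXCL10 and, in the neighbour that was not called, CXCL9, at −171. Searched on both strands, it is in 3.57% of all windows and in those of 4 family genes, CXCL9, CXCL10, CCR6 and XCR1. The NF-kB form began at −176 in CXCL10 and −75 in CXCL11, and the AP-1 form at −87 in CXCL11. The NF-kB form was thus in windows of ligands that rose (CXCL10 and CXCL11) and of the 5 ELR ligands that fell, and the sequence of CCL5 was not analysed here. For CXCL11 no interferon form of these letters is in the window.

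CCL5 was the one other ligand called higher, and CXCL16 was above the bound in both lines without being called. CCL5 (RANTES), which draws T cells, monocytes and eosinophils through receptors that include CCR1 and CCR3, was at 6.16, 5.96 and 5.86 in T24 and at 7.50, 8.004 and 7.28 in T24/THP. It was 3.03-fold higher (1.60 ± 0.179, limma adjusted p of 0.00032), with all T24/THP arrays above all T24 arrays. Its gene is on chromosome 17, in the large CC cluster, where every other CC ligand row lay under the bound in both lines. CXCL16, a membrane-bound ligand of CXCR6, was at 6.04, 6.19 and 6.24 in T24 and at 5.87, 5.96 and 5.90 in T24/THP. The lines did not overlap there either, but the difference was small (−0.24, 95% interval of −0.41 to −0.08, limma adjusted p of 0.0297).

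The other 57 family rows lay under the bound in both lines, 85.1% of the family beside 58.1% of all rows, and none of them was called (0.318% of all such rows were). The bound is strict, since only 2 of the 67 rows lay under the median control probe set in both lines. Their differences ran from −0.99 for CXCL3 to 0.31 for CCL21, with a median of 0.06. CXCL17, a mucosal ligand, was at 2.98 ± 0.09 in T24 and 3.21 ± 0.06 in T24/THP (SD, n = 3 each), which passed the test without the 2-fold minimum (limma adjusted p of 0.0338). CCL28, a mucosal ligand of CCR10, was at 5.14 ± 0.18 and 5.17 ± 0.06. CCL2, the main monocyte attractant, was at 3.16 ± 0.03 and 3.17 ± 0.11, and CXCL12, the ligand of CXCR4, at 3.48 ± 0.08 and 3.48 ± 0.11. The 2 rows each of CCL3L3 and CCL4L1, multicopy genes whose probes may share signal, were also under the bound.

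All 20 receptor rows lay under the bound in every array, where the brightest value was 5.03. Their differences ran from −0.19 to 0.24, with a median of 0.03. The receptors of the ligands that fell were at 3.10 and 3.12 for CXCR1, 3.26 and 3.29 for CXCR2 and 3.00 and 2.91 for CCR6 in T24 and T24/THP. CXCR3, the receptor of CXCL10 and CXCL11, was at 3.65 and 3.76. Of the CCL5 receptors, CCR1 was at 2.75 and 2.56 and CCR3 at 2.98 and 3.03. The scavenging receptors ACKR1 and ACKR3 were at 2.92 and 3.00, and at 3.05 and 3.01. CXCR4, which many carcinomas carry, was at 3.85 and 4.06, with a 95% interval of 0.01 to 0.41 for the difference before any correction and a limma adjusted p of 0.115. CCR10, a skin and mucosal homing receptor, was at 4.71 and 4.95. The genes ACKR4, CCRL2 and PF4V1, which the naming rule leaves out, lay under the bound too, at 3.20 to 3.50.

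A second set of rows bore on the same transcripts. The table holds 23 rows without a gene symbol that it assigns to a gene of the family, 17 on the same strand and 6 antisense. All 65854 annotated rows were fitted together to read them, in which 4.27% of rows were called, and whether they share probes with the named rows is not given in the sources used here. Of the 23, 19 lay under the bound in both lines and 4 were called, 3 lower and 1 higher, and these 4 overlap exons of CXCL5, CXCL6, CXCL8 and CXCL11. The CXCL8 row was at 13.82, 13.73 and 12.41 in T24 and at 10.24, 11.37 and 10.77 in T24/THP, a difference of −2.53 ± 0.428 (limma adjusted p of 0.00649). The CXCL5 row was at 10.87, 10.82 and 10.71 and at 7.90, 8.21 and 7.83 (−2.82 ± 0.114). The CXCL6 row was at 13.42, 13.38 and 12.78 and at 10.71, 10.87 and 11.09 (−2.31 ± 0.186), against −1.62 in the named row. The CXCL11 row was at 4.35, 4.04 and 4.55 in T24 and at 8.15, 8.01 and 7.75 in T24/THP, at least 5.40-fold higher. In each of these 4 rows the lines did not overlap and the direction was that of the named row.

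**Figure D3:**
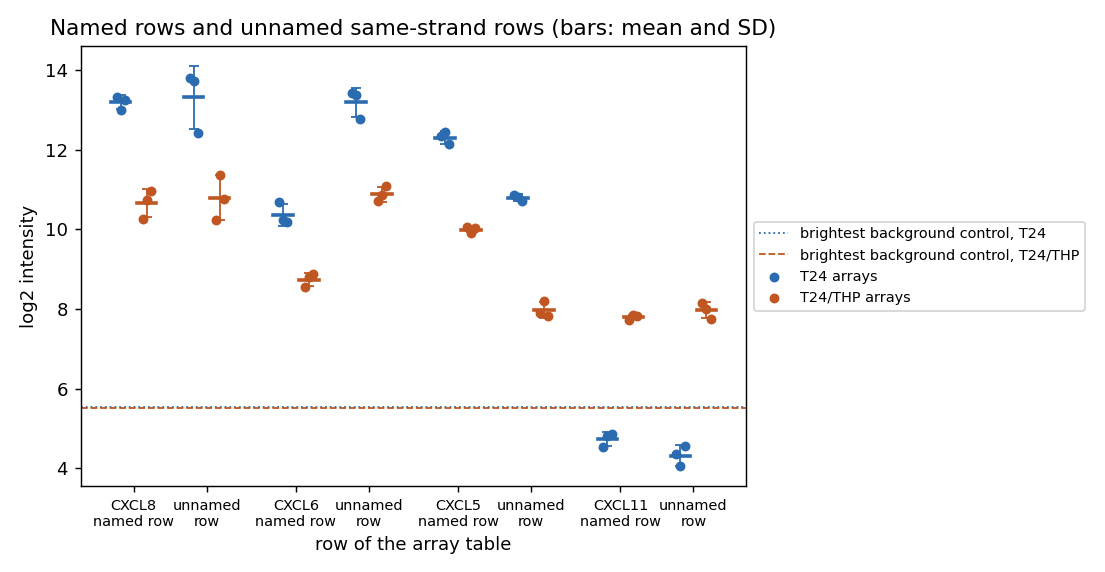
Log2 intensity (y axis) of the named row and the unnamed same-strand row of CXCL8, CXCL6, CXCL5 and CXCL11 (x axis) in each array, with the mean and SD of 3 arrays per line. In each pair both rows put T24/THP on the same side of T24, and T24 replicate 3 stands apart in the unnamed CXCL8 row at 12.41.

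By position, the called CXC ligands fell into 2 groups on chromosome 4 (GRCh37, the build named in the deposited table). The stretch from CXCL8 to CXCL2, 74606223 to 74965010, spans 358.8 kb and holds 10 named rows, of which 8 belong to the family. From CXCL8 onward these were CXCL8, CXCL6, CXCL1, PF4, PPBP, CXCL5, CXCL3 and CXCL2, with PF4V1 and the pseudogene PPBPP2 between them. On the plus strand lie CXCL8 (74606223 to 74609433), CXCL6 (74702214 to 74714781) and CXCL1 (74735109 to 74737019). On the minus strand lie CXCL5 (74861359 to 74864496), CXCL3 (74902306 to 74904524) and CXCL2 (74962754 to 74965010). The 5 called falls were thus interspersed with 4 rows in the background range that differed by −0.07 to 0.10, and with CXCL3. The stretch from CXCL9 to CXCL11, 76922428 to 76962568, spans 40.1 kb and holds 3 named rows wholly inside it, all of the family, 2 of which rose, CXCL10 (76942269 to 76944689) and CXCL11 (76954835 to 76962568), both on the minus strand. ART3, an ADP-ribosyltransferase gene on the plus strand (76932333 to 77033955), starts inside this stretch and runs across both, and it was at 3.21 in both lines. Between the groups the growth factor genes EREG (epiregulin) and AREG (amphiregulin) fell, EREG from 11.85 ± 0.36 to 9.48 ± 0.06 (limma adjusted p of 3.19e-05) and the 2 rows of AREG at least 2.85-fold and 2.86-fold. The growth factor genes BTC and EPGN in the same stretch were not called. BTC had means of 4.77 in T24 and 5.51 in T24/THP (limma adjusted p of 0.00789), and EPGN of 2.99 and 3.04. Just before CXCL8, RASSF6, a tumour suppressor of the RASSF family, was called higher (1.62, limma adjusted p of 3.27e-05), with means of 3.84 and 5.46 that lie under the bound in both lines, although T24/THP replicate 3 was at 5.64. Beyond CXCL11 and ART3, NUP54 was called lower, from a mean of 9.39 in T24 to 8.33 in T24/THP (−1.06, limma adjusted p of 5.51e-05). CCL20 lies on chromosome 2 at 228678558 to 228682280, and CCL5 on chromosome 17 at 34198495 to 34207797.

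**Figure D4:**
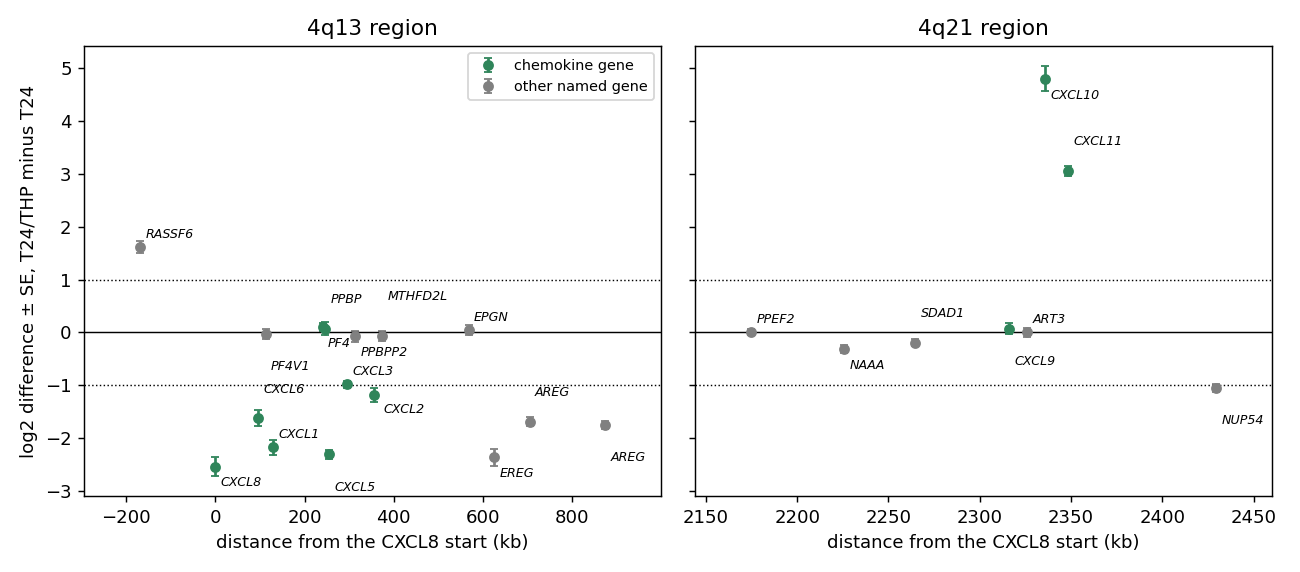
Log2 difference ± SE (y axis) of the named rows around the 2 chemokine groups of chromosome 4 (left and right panels) against their distance in kb from the start of CXCL8 (x axis), with chemokine genes in green and other genes in grey. CXCL8, CXCL6, CXCL1, CXCL5 and CXCL2 lie below −1, PF4, PPBP and PF4V1 lie near 0 between them, and CXCL10 and CXCL11 lie above 2.

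The genes that act before and after chemokines were read from 6 lists with 136 of 137 members measured, of which 11 rose (8.09%) and 10 fell (7.35%), beside 3.02% and 3.67% of all rows. The median difference over these members was −0.01. Of all rows above the bound in either line 15.5% were called, in either direction, and of those under it in both lines 0.318%. The list shares mix both kinds of row, so neither of these percentages has the same base as they do. The lists were chosen with earlier results of these data known. They describe and were not tested as sets.

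Among 32 inducing cytokines, sensors and their receptors 3 rose and 5 fell. IL1B and IL1A, which encode the interleukin 1 cytokines that switch on chemokine genes, fell from 14.13 ± 0.09 to 11.81 ± 0.20 and from 14.02 ± 0.25 to 12.40 ± 0.11 (SD, n = 3 each). TNF, the other classical inducer, fell from 7.78 ± 0.20 to 6.30 ± 0.37, and TLR4, the lipopolysaccharide receptor, from 9.68 ± 0.16 to 8.43 ± 0.06. IFIH1 and RIGI, sensors of double-stranded RNA that can induce CXCL10, rose from 7.29 ± 0.17 to 11.55 ± 0.12 and from 9.74 ± 0.17 to 12.97 ± 0.04. IL18, a cytokine that acts with interferon gamma, rose from 8.77 ± 0.09 to 10.48 ± 0.09. The 5 interferon genes on the list, IFNB1, IFNG, IFNL1, IFNL2 and IFNL3, had means of 2.90 to 3.85 in both lines, under the bound.

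Among 27 transcription factors and regulators of chemokine genes 3 rose and 2 fell. STAT2, which carries the interferon signal to the nucleus, rose from 8.24 ± 0.16 to 11.45 ± 0.09, and IRF7, a master factor of interferon induction, rose from 5.97 ± 0.11 to 7.46 ± 0.11. FOSL1 and JUN, subunits of AP-1, fell from 8.58 ± 0.20 to 6.07 ± 0.23 and from 7.07 ± 0.12 to 5.77 ± 0.07. None of the 5 NF-kB subunit genes was called, with differences from −0.66 (NFKB1) to 0.35 (REL). Without the 2-fold minimum NFKB1 and RELA, both lower, passed the test (limma adjusted p of 0.000325 and 0.0301). REL, which was higher, passed it too (limma adjusted p of 0.0277), while NFKB2 and RELB did not. Of all rows 32.9% passed it.

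Of 22 genes that anchor or process chemokines 2 rose and 2 fell. DPP4, a peptidase that trims and inactivates CXCL10 and CXCL11, rose 4.19-fold, from 5.76 ± 0.18 to 7.83 ± 0.48. SDC2, a heparan sulfate proteoglycan, was at least 1.04-fold higher. SULF2, which removes sulfate from heparan sulfate, was at least 1.82-fold lower, and EXT2, which builds that chain, fell from 11.17 ± 0.09 to 9.86 ± 0.17. Of 32 receptor signalling genes 1 rose and 1 fell. RGS4, which shortens G protein signals, was at least 3.88-fold higher, and PREX1, an activator of the GTPase RAC, fell from 10.30 ± 0.10 to 9.06 ± 0.13. Of 10 regulators of chemokine mRNA stability 2 rose, ZFP36 from 7.54 ± 0.25 to 8.55 ± 0.20 and ZFP36L2 from 9.72 ± 0.28 to 10.77 ± 0.19. Both encode proteins that speed the decay of AU-rich messages. None of the 13 chemokine-like ligands and decoys measured was called.

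**Figure D5:**
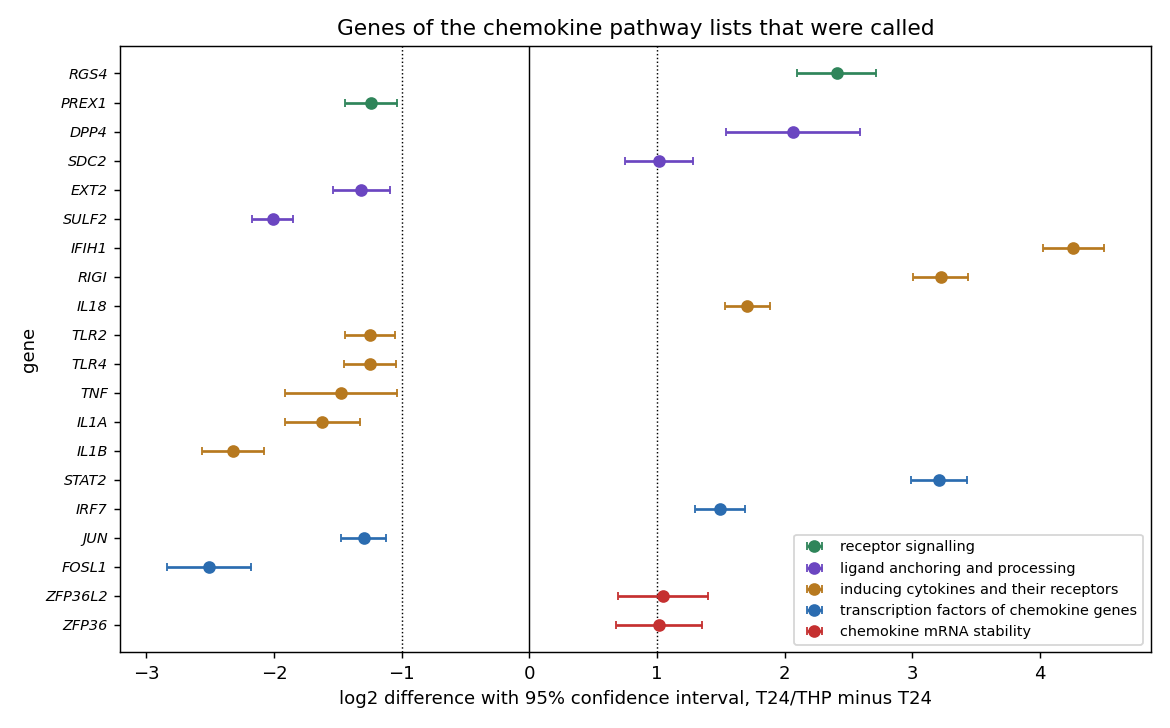
Log2 difference of T24/THP minus T24 with its 95% confidence interval (x axis) for 20 called genes of the pathway lists (y axis), coloured by list. The interferon-linked genes IFIH1, RIGI and STAT2 lie above 3, while FOSL1, IL1B and SULF2 lie near or below −2.

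The arrays of a line correlated at 0.9922 to 0.9964 over all rows and those of different lines at 0.9776 to 0.9834 (Pearson, across rows, which are not independent). Leukocyte RNA, a possible outside source of chemokine transcripts, was checked with 16 markers. Of these 15 lay under the bound in both lines, with means of 2.84 to 4.21, PTPRC among them at 3.28 and 3.36, and CD68, a lysosomal protein of many cell types, was called higher. The mean level of all 16 markers per array, with CD68 included, was 3.76 to 3.86 in T24 and 3.88 to 3.92 in T24/THP. The part of leukocyte RNA in the results was not tested. All 8 fibroblast markers lay under the bound, as did 6 of 8 endothelial markers in both lines. Of the other endothelial markers TIE1 was called lower, by at least 2.28-fold, and CDH5 was at 12.30 in T24 and 13.12 in T24/THP without being called (limma adjusted p of 0.000369). Of 15 urothelial and epithelial markers KRT7, KRT8 and KRT18 lay above the bound in both lines. The other 12 lay under it in both lines. These were the uroplakins and GATA3, which mark differentiated urothelium, and KRT5, KRT13, KRT19, KRT20, EPCAM, CDH1 and TP63. In a test against a 2-fold difference itself, CXCL1, CXCL5, CXCL8, CXCL10 and CXCL11 kept their calls, while CXCL6 (limma adjusted p of 0.0578), CCL5 (0.159), CCL20 (0.231) and CXCL2 (1) lost theirs. CXCL1, CXCL2 and CXCL3, and likewise CXCL5 and CXCL6, are close paralogs whose probes may share signal.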

How the data were processed

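Each array's deposited column holds log2 intensities of transcript clusters. Per the labels' protocols, total RNA was amplified to biotin-labelled cDNA. The submitters' processing notes name Affymetrix Expression Console; how it was set, and its version, is not given in the sources used here. Array medians were 3.71 to 3.79, so the deposited log2 values were taken as normalized, and nothing was rescaled. Precision is limited by having 3 arrays a line.

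Of 65854 annotated rows the 26515 with exactly 1 symbol were fitted with limma 3.58.1 in R 4.3.3 (lmFit, eBayes, 2 groups, no covariate, two-sided, no filter, Benjamini-Hochberg adjustment), each row for itself. Means ± SD are over 3 arrays and differences ± SE are from the fit. Symbols were updated by accession, symbol or unique synonym through a RefSeq table of GRCh38.p14, which renamed 3 family rows. The 23 control probe sets came from the deposited series table, whose values differed from the annotated table by at most 0.00005 log2 units. Lists use the brightest row per gene. Every called family row is named, as is every family row above the bound, with up to 4 called genes per direction and list, except that some genes are counted but not reported here by name. The family and the lists were chosen with earlier results of these data known. Alternatives changed the scaling, offset, filter, rows per gene, test, variance prior, replicate block, level trend and replicates. Sequences were read from a RefSeq promoter table and aligned with Biopython 1.88. Rows without a symbol, other than those overlapping family genes, and rows with several symbols were not used.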

Additional observations from a re-analysis of the deposited data

How the results depend on the processing

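The directions of the 9 called ligands held in all alternatives run. The count of family rows called higher stayed at 3, or 2 in the test against a 2-fold difference itself, and the count called lower was 6 or 7, or 3 in that test. CXCL3 was the seventh. That test also reduced the calls over all rows to 402 higher and 394 lower, from 801 and 974, and those of lower pathway genes from 10 to 4. With the median control probe set as the bound 65 family rows lay above it in either line instead of 10, with the 95th percentile 12, and likewise 12 with the T24 bound taken without replicate 3, a setting chosen after seeing the data, as was the fit over all annotated rows. Quantile normalization turned the split over all rows to 867 higher and 851 lower, and removal of the level trend to 893 and 837. The labels do not say whether same-numbered replicates were handled together. Their deviations correlated at 0.0224, 0.140 and −0.00722, which cannot settle it with 3 arrays a line. With the replicate block 3 family rows were called higher and 6 lower. Depth is not defined for arrays, and differences of rows near the bound are compressed by an unknown amount.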
